A study of Mus musculus with 18 samples.

Results

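The mitotic spindle and checkpoint genes described here are 38 mouse genes that act between the entry into mitosis and the division of the cell. They were listed by name, with earlier results of these data known, by a rule that uses no measured value. A gene was taken as measured where the accession of a probe belongs to it in RefSeq. All 38 were found among the 37246 probes of the array, of which 22216 carry a RefSeq gene name. They comprise 4 mitotic kinases, 4 members of the chromosomal passenger complex, 6 genes of the spindle checkpoint, 7 centromere and kinetochore genes, 5 spindle motors and assembly factors, 6 cytokinesis genes and 6 genes of anaphase and chromosome separation. A further 96 mitotic genes, 93 of them on the array, were listed for comparison.

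RNA was measured on 18 Agilent one-color arrays, 1 for each sample, in 6 groups of 3. ES are unirradiated wild-type mouse embryonic stem cells that were isolated from blastocysts and kept on gelatin with leukemia inhibitory factor and without feeder cells. ESRE and ESRL are the same cells collected 15 min and 4 h after 10 Gy of ionizing radiation (IR). ED are unirradiated cells differentiated from these stem cells by withdrawal of that factor for about 1 week, and EDRE and EDRL are ED cells collected 15 min and 4 h after 10 Gy. Nothing in the labels ties the samples to separate cultures, so the p-values measure the spread between these samples, which may be technical.

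When a cell enters mitosis, cyclin B with CDK1 and the Polo and Aurora kinases drive the assembly of a spindle, whose microtubules attach to the kinetochores on the centromeres. The spindle checkpoint holds back the anaphase-promoting complex (APC/C) and its activator Cdc20 until each kinetochore is attached. The APC/C then marks securin and cyclin B for destruction, separase cuts cohesin, the chromatids part, and a contractile ring divides the cell. The RNA of many of these genes rises toward mitosis and is low in resting cells, and damaged DNA halts cells before mitosis. In a bulk sample, fewer cells in mitosis and less RNA in each cell cannot be told apart.

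A level is the log2 of the background-subtracted signal of a probe minus the log2 of the 75th percentile found over the probes of that array, and a change is a difference of 2 group means of these levels, given with its standard error. A gene was called where the Benjamini-Hochberg adjusted p of its main probe, the brightest on average, was under 0.05 in a limma fit across all probes. Levels of different genes come from different probes and are not compared. The 75th percentile was 875 and 1154.5 on EDRE replicates 2 and 3 and 1952.3 on ESRL replicate 1, against 2806.1 to 4268.3 on the other arrays. On EDRE replicates 2 and 3, 24.38% and 23.8% of the spots carried an outlier mark and were left out. The 38 genes were marked there more often than spots at large, with 25 and 20 left out and 13 and 18 remaining. On each other array 25 to 36 remained. The arrays fall into 6 scan times, and none holds a group together with its unirradiated control. ESRL replicate 1 was alone in its scan time and was the only array read on another scanner. The cell type labels were checked on marker genes. Of these, 6 of the 7 stem cell markers tested were lower in ED than in ES, and 6 of the 7 mesenchymal markers were higher. The other mesenchymal marker, Thy1, was lower (-9.87). All 3 endoderm and all 3 mesoderm markers tested were lower as well, and so was 1 of 4 neuroectoderm markers, with none higher. Over all probes tested, 19.8% were higher and 32.1% lower. Kif20a was well above background on 15 of the 18 arrays and Nuf2 on 16, and the other 36 genes on all of them. Ndc80 and Dlgap5 had too few usable spots to be tested in any comparison.

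**Figure D1:**
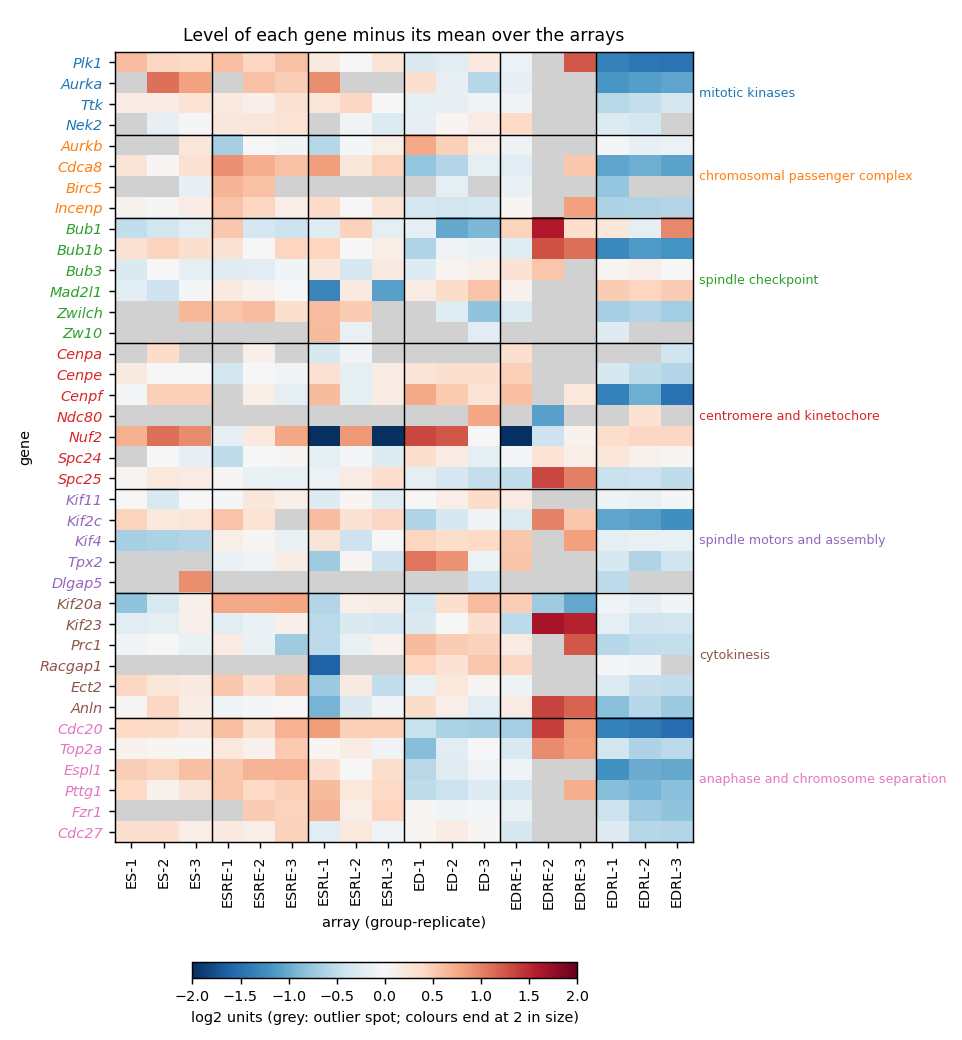
Level of each of the 38 genes (rows, in the color of their role) on each of the 18 arrays (columns) minus the gene's mean over the arrays, in log2 units, with grey for spots marked as outliers. The block of the 3 EDRL arrays is mostly blue, and the columns of EDRE replicates 2 and 3 are mostly grey or red; a gene with few usable arrays is centered on those few.

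At 4 h after IR, 4 of the genes were lower in differentiated cells than before IR. Cenpf, Plk1, Espl1 and Cenpe fell, of 35 genes tested, beside 0.653% of all 25412 probes tested that fell in EDRL against ED. None of the 35 rose, beside 1.74% of all probes (limma; unadjusted p under 0.05 for 1 higher and 18 lower; the methods' t-test called 0 higher and 8 lower). The change was below 0 for 31 of the 35, and for 59.4% of all probes. The median change of the 35 was -0.47, and that of all probes tested was -0.09. Read without a model, the 3 EDRL arrays lay below the 3 ED arrays, with no overlap, for 21 of the 30 genes measured on all 6 arrays (29.8% of all probes so measured) and above them for 1 gene (14.8% of all probes).

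Cenpf, a large kinetochore protein that accumulates toward mitosis, stood at -2.51, -2.75 and -2.99 on the ED arrays and at -4.62, -4.25 and -4.76 on the EDRL arrays. On EDRE replicates 1 and 3 it was -2.67 and -3.06. The 3 EDRL arrays were thus the lowest of the 16 on which the gene could be read, and ED and EDRL did not overlap. The change in EDRL against ED was -1.79 ± 0.24 (standard error, n = 3 against 3), a 3.47-fold fall (limma, adjusted p = 0.00145).

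Plk1, the Polo kinase that drives mitotic entry, centrosome maturation and cytokinesis, was 3.20, 3.27 and 3.69 in ED and 2.14, 2.05 and 2.01 in EDRL. In ES cells it was 4.11, 3.90 and 3.89 before IR and 3.68, 3.48 and 3.76 at 4 h. Here too the EDRL arrays were the lowest of all those read. The fall in EDRL was -1.32 ± 0.26, or 2.5-fold (adjusted p = 0.0147), while in ES cells the change was -0.33 ± 0.26 (adjusted p = 0.49). The change in ED minus that in ES cells was -0.99 ± 0.37 and was not called (limma interaction, adjusted p = 0.229).

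Espl1 encodes separase, the protease that opens the cohesin ring at anaphase. Its level was 3.25, 3.56 and 3.74 in ED and 2.60, 2.82 and 2.78 in EDRL, a change of -0.78 ± 0.16 (adjusted p = 0.0217). Cenpe, a kinesin that carries chromosomes to the spindle equator, was 3.88, 3.95 and 3.95 in ED and 3.31, 3.12 and 3.04 in EDRL, a change of -0.77 ± 0.16 (adjusted p = 0.0232). Neither gene had overlapping ED and EDRL arrays, and for each the EDRL mean lay below the means of the other groups.

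Several regulators of the same steps had changes of like size that did not pass. Prc1, which bundles the microtubules of the central spindle, was 5.06, 4.93 and 4.89 in ED and 3.85, 3.93 and 3.94 in EDRL (-1.06 ± 0.26, adjusted p = 0.0539). Aurka, the Aurora kinase of the spindle poles, was 0.97, 0.49 and 0.08 in ED and -0.51, -0.45 and -0.41 in EDRL (-0.97 ± 0.23, adjusted p = 0.0766). Tpx2, which activates Aurka on the spindle, has 5 probes, with changes from -1.49 to -0.88, of which 1 passed (-1.13 ± 0.19, adjusted p = 0.00534) and the main one did not (-1.07 ± 0.30, adjusted p = 0.11). All 3 of these genes had EDRL arrays below the ED arrays. Cdc20 was 4.13, 3.94 and 3.91 in ED and 3.22, 3.16 and 3.05 in EDRL (-0.85 ± 0.35, adjusted p = 0.288), and Bub1b, the checkpoint protein BubR1, was 3.01, 3.54 and 3.49 against 2.32, 2.49 and 2.42 (-0.94 ± 0.30, adjusted p = 0.143). Both were without overlap as well, and for both the standard error takes in the spread of the EDRE arrays, which share the fit.

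**Figure D2:**
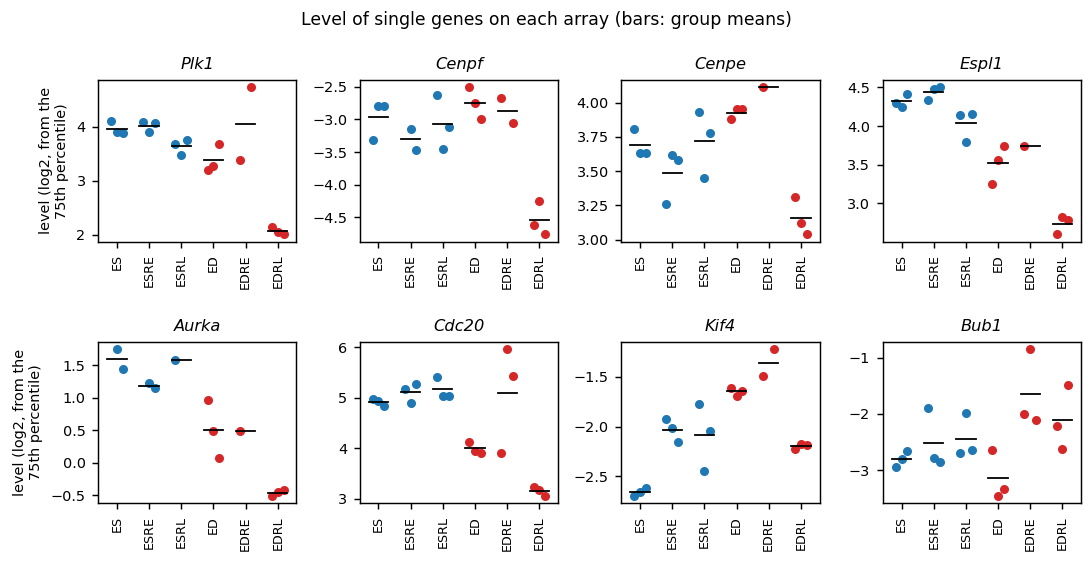
Levels of 8 genes on each array (points, levels in log2 units; blue for ES, ESRE and ESRL, red for ED, EDRE and EDRL) with group means as bars, leaving out outlier spots; the vertical axes differ and do not start at 0. The EDRL points are the lowest for Plk1, Cenpf, Espl1, Aurka and Cdc20, whereas Bub1 in EDRL lies above ED and Kif4 in EDRL lies between ES and ED.

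By role, the 4 kinases had a median change of -0.65 in EDRL against ED, from -1.32 for Plk1 to -0.31 for Ttk, and 1 of 4 fell. The second probe of Ttk was at -0.80 ± 0.22 (adjusted p = 0.0838). The 4 spindle motors and assembly factors tested had a median of -0.67, with none called, and Kif2c, a kinesin that takes microtubules apart, was at -0.79 ± 0.26 (adjusted p = 0.147). The 4 genes of the chromosomal passenger complex, which corrects wrong attachments, ranged from -0.58 for Birc5 to -0.25 for Incenp, with none called. The 6 cytokinesis genes ranged from -1.06 for Prc1 to -0.29 for Kif20a, with none called, and the 6 genes of anaphase from -0.85 for Cdc20 to -0.16 for Top2a, with Espl1 called. Of 5 centromere and kinetochore genes tested, 2 fell, with a median of -0.46. These 6 groups each had a median below that of all probes.

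The spindle checkpoint was the group with a median near that of all probes, 0.02, and its 6 genes ranged from -0.94 to 1.04, with none called. Bub3, which binds checkpoint proteins to kinetochores, was 1.66, 1.98 and 2.04 in ED and 1.98, 2.03 and 1.91 in EDRL. Mad2l1, the inhibitor of Cdc20, was 0.61, 0.84 and 1.04 in ED and 0.98, 0.90 and 0.97 in EDRL. For both genes the groups overlapped, with changes of 0.08 ± 0.17 and 0.12 ± 0.30 (adjusted p = 0.893 and 0.909). Bub1, the kinase that places the checkpoint at the kinetochore, was -2.64, -3.46 and -3.34 in ED and -2.21, -2.62 and -1.48 in EDRL, the 1 gene of the 30 with EDRL above ED, where the nearest arrays lay at -2.64 and -2.62 (1.04 ± 0.38, adjusted p = 0.215; 0.79 ± 0.68 with its second probe). Zw10 could be read on 4 arrays, at 2.58 on an ED array and 2.53 on an EDRL array, and Zwilch, its partner in the complex that brings dynein to kinetochores, changed by -0.12 ± 0.21 (adjusted p = 0.865).

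The remaining genes with values on each array belong to anaphase and the passenger complex. Fzr1, the activator that keeps the APC/C on after mitosis, was 3.09, 2.99 and 3.03 in ED and 2.64, 2.33 and 2.26 in EDRL (-0.63 ± 0.18, adjusted p = 0.122). Pttg1, securin, was 4.58, 4.66 and 4.83 in ED and 4.23, 4.16 and 4.25 in EDRL (-0.47 ± 0.22, adjusted p = 0.352). Both had groups without overlap and a change smaller than that of Plk1. Top2a, which untangles chromatids, overlapped, with 5.39, 6.03 and 6.25 in ED and 5.87, 5.61 and 5.70 in EDRL. Aurkb was 2.64, 2.37 and 2.02 in ED and 1.86, 1.73 and 1.77 in EDRL (-0.56 ± 0.25, adjusted p = 0.343), again without overlap. Birc5, survivin, was usable on 6 arrays in all, at 4.80 on 1 ED array and 4.22 on 1 EDRL array.

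**Figure D3:**
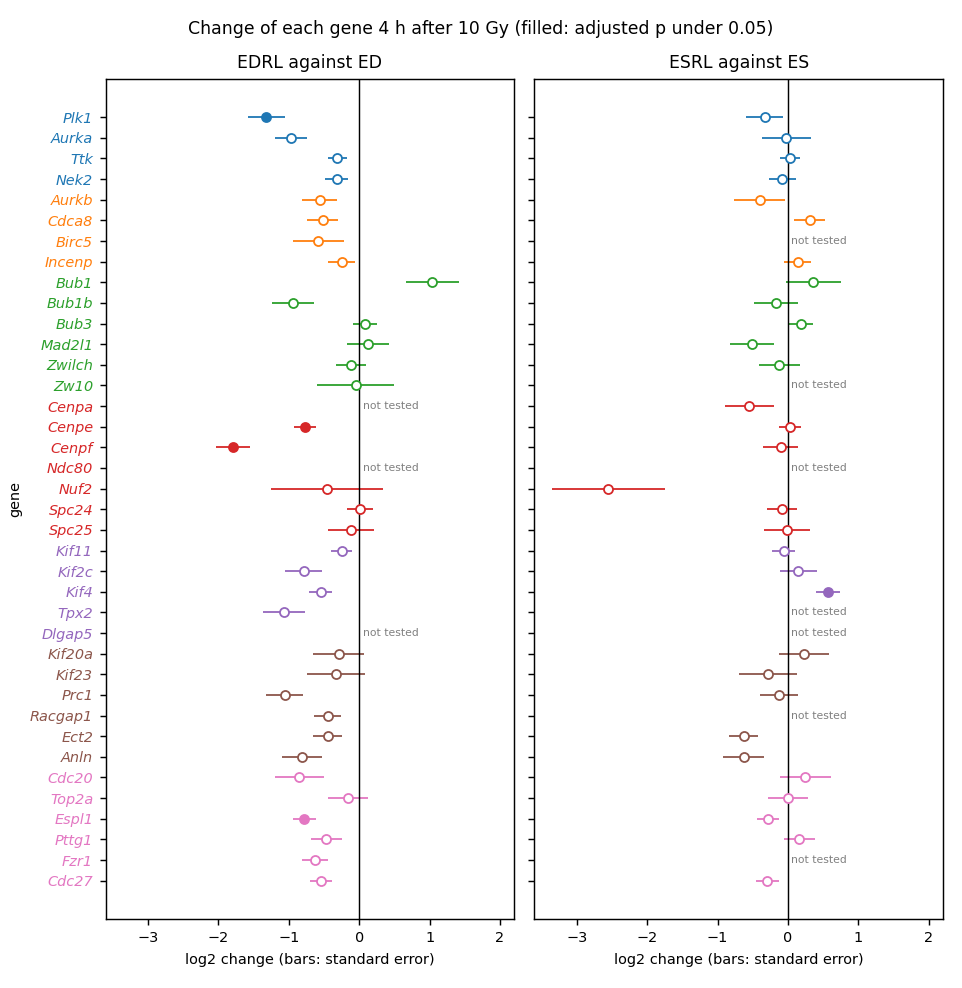
Change of each gene 4 h after 10 Gy in differentiated cells (left, EDRL against ED) and stem cells (right, ESRL against ES), in log2 units with standard errors, colored by role and filled where the adjusted p is under 0.05. In differentiated cells 31 of 35 points lie left of 0 and 4 are filled, while in stem cells the points scatter about 0 with a median of -0.08.

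The 4 falls rest on few arrays. The number of genes called lower was 1 without EDRL replicate 2 and 1 without EDRL replicate 3, 2 without ED replicate 2, 10 without EDRE replicate 1, and, left out together after their low signal was seen, 12 without EDRE replicates 2 and 3. Of the 6 fits that left out 1 ED or EDRL array, Cenpf was called in 6, Plk1 in 3, and Espl1 and Cenpe in 1 each, and the 12 fits that left out an array of another group kept all 4 calls. All 3 EDRL arrays share a scan time with EDRE replicate 1, and the ED arrays have another, so that scan time and IR cannot be told apart in this comparison. With scan time as a random block none of the 4 was called, with changes of -2.25 for Cenpf (adjusted p = 0.308) and of -0.75 for Plk1, -0.77 for Espl1 and -0.77 for Cenpe (adjusted p = 1.0 for each). Within the shared scan time, the mean of the EDRL arrays lay below EDRE replicate 1 for 30 of 35 genes, against 45.7% of all probes. The median difference was -0.59, beside 0.04 for all probes. The differences were -1.87 for Cenpf, -1.32 for Plk1, -1.0 for Espl1 and -0.95 for Cenpe.

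Sequences 5′ of some of these genes are shown because 4 of them fell and many hold the same short elements there. Background holds that a cell cycle homology region (CHR) near the start site binds the DREAM and MuvB complexes, which turn many mitotic genes off in resting cells and on toward mitosis, and that CCAAT boxes nearby bind NF-Y. Windows of 250 bases before to 50 bases after the start, from RefSeq on GRCm38.p6, were held for 31 of the 38 genes. TTTGAA or TTCGAA on either strand was in a window of 23 of the 31 genes, or 74.2%, against 21.7% of all 27025 genes with a window, and CCAAT on either strand was in 23, or 74.2%, against 41.1%. Matches to the 2 elements can share an end base, as they do in Cdca8. Of the 31 genes, 19, or 61.3%, held both, against 9.65% of all genes. A match of letters describes the window and is not a binding site.

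The windows below run from base -140, counted from the start, to base 10 of the transcript, on the strand of the gene, with each match in capitals (ATTGG is CCAAT read on the other strand). Plk1 is at chr7:122159295-122159444 (plus strand), Espl1 at chr15:102296153-102296302 (plus), Cenpf at chr1:189688077-189688226 (minus), Cenpe at chr3:135212423-135212572 (plus), Cdc20 at chr4:118437334-118437483 (minus), Fzr1 at chr10:81378361-81378510 (minus) and Cdc27 at chr11:104550611-104550760 (minus). The first 4 are the genes that fell, Cdc20 holds TTTGAA between CCAAT boxes, and Fzr1 and Cdc27 are members without a match to the CHR letters.
Plk1: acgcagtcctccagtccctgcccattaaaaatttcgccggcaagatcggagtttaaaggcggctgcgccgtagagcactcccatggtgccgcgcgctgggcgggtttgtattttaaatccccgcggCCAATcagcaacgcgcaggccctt
Espl1: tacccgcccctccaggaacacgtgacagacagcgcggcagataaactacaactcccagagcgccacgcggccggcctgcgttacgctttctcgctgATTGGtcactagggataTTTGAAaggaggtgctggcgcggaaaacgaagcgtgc
Cenpf: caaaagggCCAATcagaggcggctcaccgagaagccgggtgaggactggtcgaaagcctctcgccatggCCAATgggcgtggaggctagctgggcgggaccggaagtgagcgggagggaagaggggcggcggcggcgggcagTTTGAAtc
Cenpe: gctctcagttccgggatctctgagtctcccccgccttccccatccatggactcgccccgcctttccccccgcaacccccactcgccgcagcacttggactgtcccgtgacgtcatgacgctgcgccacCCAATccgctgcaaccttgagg
Cdc20: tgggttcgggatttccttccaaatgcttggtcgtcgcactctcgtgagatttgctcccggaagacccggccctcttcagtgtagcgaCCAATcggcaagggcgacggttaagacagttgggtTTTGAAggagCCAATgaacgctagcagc
Fzr1: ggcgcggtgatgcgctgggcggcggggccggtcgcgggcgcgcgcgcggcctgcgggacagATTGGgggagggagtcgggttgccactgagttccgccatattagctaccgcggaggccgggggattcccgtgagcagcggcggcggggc
Cdc27: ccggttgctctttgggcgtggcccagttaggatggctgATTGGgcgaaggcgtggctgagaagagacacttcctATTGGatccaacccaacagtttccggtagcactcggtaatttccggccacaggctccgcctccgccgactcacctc

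In Plk1 the TTTGAA lies outside the stretch shown, at base 31 of the transcript. Espl1 has its TTTGAA at base -27 and a reversed CCAAT at base -44, Cenpf has TTTGAA at base 3 of the transcript with CCAAT at bases -132 and -71, and Cdc20 has TTTGAA at base -18 (first base of each match). Cenpe, which fell, holds CCAAT but neither CHR spelling in its window. Among the genes tested in EDRL against ED, the 18 with both elements had a median change of -0.49 and 3 of them fell, and the 11 with a window but not both elements had a median of -0.54 and 1 fell. Over all genes, 1.44% of the 971 with both elements fell in EDRL, against 0.666% of the 10203 without both, with medians of -0.11 and -0.06. Of the 971, 14 fell and 16 rose, and of the 10203, 68 fell and 227 rose. In ESRL against ES, 4.61% of 1042 genes with both elements fell, against 5.28% of 11139 without both. The part of these elements in the falls was not tested.

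In stem cells at 4 h few of the same genes were called. Of 31 tested in ESRL against ES, 1 rose, beside 1.75% of all 27966 probes, and 0 fell, beside 7.13% (limma; at an unadjusted p under 0.05, 1 was higher and 3 lower, and the methods' t-test called 0 lower). The median change was -0.08, with all probes at -0.16, and 20 of the 31 changes were below 0, against 62% of all probes. The 3 ESRL arrays were below the ES arrays with no overlap for 5 of 25 genes (23.7% of all probes). These were Plk1, Kif23, Espl1, Ect2 and Anln, of which Plk1 and Espl1 also fell in EDRL. The ESRL arrays were above for 2, Kif4 and Cdc20 (10.4%). The gene that rose was Kif4, a chromokinesin of the central spindle, at -2.70, -2.66 and -2.62 in ES and -1.77, -2.45 and -2.04 in ESRL (0.57 ± 0.17, adjusted p = 0.0474). Without ESRL replicate 2, 3 genes were called lower. The second probe of Pttg1 fell (-0.58 ± 0.14, adjusted p = 0.0193), while its main probe was at 0.16 ± 0.22 (adjusted p = 0.712). The call of Kif4 was lost in 14 of the 18 fits that left out 1 array and with scan time as a random block, where its change was 0.53 (adjusted p = 1.0). Nuf2, a subunit of the NDC80 complex, had the lowest value, -2.55 ± 0.80 (adjusted p = 0.0622), from -4.06, -3.66 and -3.82 in ES to -7.75, -3.90 and -7.56 in ESRL, where 2 arrays stand far below the other. The lowest level well above background was -6.10 on ESRL replicate 1 and -7.61 on ESRL replicate 3. The Nuf2 value thus lay under that bound on replicate 1 and near it on replicate 3. Within the scan time that holds ESRL replicates 2 and 3 and ESRE replicates 1 and 2, the 32 genes measured had a median difference of -0.13, beside -0.08 for all probes.

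The change at 4 h was more negative in ED than in ES cells for 2 of the 30 genes tested for this interaction, Cenpf (-1.70 ± 0.35, adjusted p = 0.041) and Kif4 (-1.12 ± 0.24, adjusted p = 0.0383), beside 0.243% of 28375 probes, and more positive for 0, beside 0.853% (unadjusted p under 0.05 for 8 more negative and 0 more positive). Cenpf in ES cells had gone from -3.31, -2.80 and -2.80 to -2.63, -3.45 and -3.12, a change of -0.10 ± 0.25. Kif4 moved up in ES cells and, with -1.61, -1.69 and -1.64 in ED against -2.23, -2.18 and -2.19 in EDRL, had a value of -0.55 ± 0.16 in ED cells (adjusted p = 0.105). For these 2 genes the ES groups overlapped in Cenpf and not in Kif4, and the ED groups in neither. Plk1, Cenpe and Espl1, which also fell in EDRL, were not called here (-0.99 ± 0.37, -0.8 ± 0.23 and -0.5 ± 0.23, adjusted p = 0.229, 0.135 and 0.341). The median of this interaction was -0.29 over the 30 genes and 0.15 over all probes, and 24 of the 30 were below 0, against 40.9% of all probes. The count was 0 when any 1 ES, ED or EDRL array, ESRE replicate 2 or ESRE replicate 3 was left out, 1 without ESRE replicate 1 or ESRL replicate 1, and 0 with scan time as a random block. It was 3 without ESRL replicate 2, where 2 genes were more positive, 4 without EDRE replicate 1 and 5 without EDRE replicates 2 and 3.

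**Figure D4:**
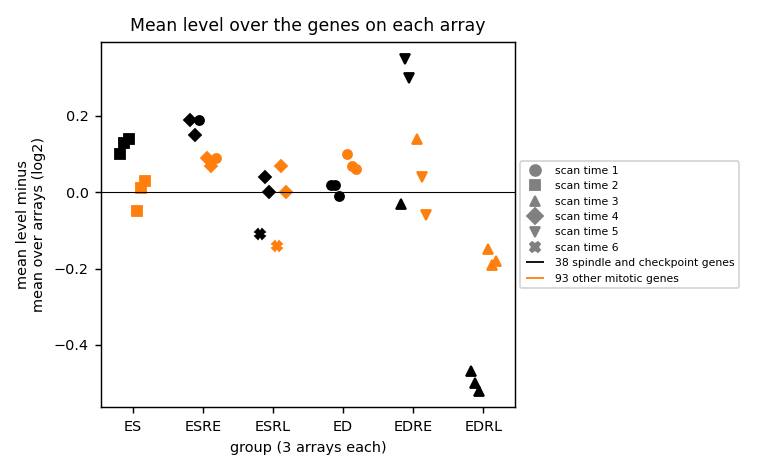
Mean over the 38 genes (black) and over 93 other mitotic genes (orange) of the level minus the gene's mean over the 18 arrays, in log2 units, for each array, with outlier spots kept so that each array holds every gene; the symbol gives the scan time. The EDRL arrays are the lowest for both sets, at -0.47 to -0.52 for the 38 genes, while EDRE replicate 1, of the same scan time, is at -0.03.

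Taken as 1 mean over all 38 genes on each array, with outlier spots kept, the module stood at 0.12 ± 0.02 (SD, n = 3) in ES, 0.18 ± 0.02 in ESRE, -0.02 ± 0.08 in ESRL, 0.01 ± 0.02 in ED and -0.50 ± 0.02 in EDRL. The 3 EDRL arrays, at -0.47, -0.50 and -0.52, lay below the other 15, the lowest of which was ESRL replicate 1 at -0.11. All ESRL arrays, at -0.11, 0.04 and 0.0, lay below the ES arrays, at 0.1, 0.13 and 0.14. In EDRE the arrays were split, with -0.03 on replicate 1 and 0.35 and 0.30 on replicates 2 and 3, the arrays of low signal. No test was made on this mean, since the genes were chosen with results known.

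At 15 min after IR few genes passed. In stem cells 0 of 32 rose in ESRE against ES, beside 0.38% of all 27875 probes, and 0 fell, beside 0.183% (limma; unadjusted p under 0.05 for 3 higher and 0 lower; the methods' t-test called 1 higher). The median change was 0.04, with all probes at -0.08. Kif20a, the kinesin that carries the passenger complex to the midzone, was -6.68, -6.18 and -5.78 in ES and -5.12, -5.12 and -5.10 in ESRE, with no overlap, near the floor of detection (1.10 ± 0.36, adjusted p = 0.247). Cenpa, the histone variant of centromeres, was read at 1.88 on 1 ES array and 1.62 on 1 ESRE array, and Birc5 at 4.84 on 1 ES array and 5.68 and 5.59 on 2 ESRE arrays.

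In differentiated cells at 15 min, Bub1 and Incenp, the scaffold of the passenger complex, were called higher, which is 2 of 34, beside 3.76% of 24490 probes, and 0 were lower, beside 3.63% (unadjusted p under 0.05 for 13 higher and 0 lower; the methods' t-test called 0 higher and 0 lower). Bub1 was -2.0, -0.85 and -2.11 in EDRE against -2.64, -3.46 and -3.34 in ED (1.49 ± 0.38, adjusted p = 0.0351), and its second probe had a change of 0.53 ± 0.68 (adjusted p = 0.696). Incenp was 1.35 and 2.12 on EDRE replicates 1 and 3 against 0.96, 0.94 and 0.96 in ED (0.78 ± 0.21, adjusted p = 0.041). For both, EDRE lay above ED without overlap, but the arrays of EDRE were far apart. Against the mean of ED, the median over the genes that could be read was 0.03 on EDRE replicate 1 (34 genes), 1.29 on replicate 2 (13 genes) and 1.06 on replicate 3 (18 genes), and with outlier spots kept these were 0.02, 0.40 and 0.33. The count of genes called higher was 12 without EDRE replicate 1, and 0 without EDRE replicate 2, EDRE replicate 3, any 1 ED array, ES replicate 2 or ES replicate 3. It was 1 without ES replicate 1, ESRE replicate 1, ESRE replicate 2 or any 1 EDRL array, 0 without EDRE replicates 2 and 3 together, and 0 with scan time as a random block. Of the cell type markers, 2 of 6 stem cell markers tested, Pou5f1 (-1.68) and Esrrb (-0.99), and 1 of 4 endoderm markers, Sox17 (-1.44), were called lower in EDRE, and none of the 6 mesenchymal, 4 neuroectoderm and 1 mesoderm markers was called. The part of the low signal and of the markers in the calls of Bub1 and Incenp was not tested. At 15 min 0 of 31 genes had a different change in ED and ES cells in either direction, beside 1.18% of 28098 probes more positive in ED and 0.826% more negative (unadjusted p under 0.05 for 4 and 1), and without EDRE replicate 1 the numbers were 10 and 1.

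Before IR, differentiated and stem cells differed in single genes of the set, while in the main fit its median matched that of all probes. In ED against ES, 1 of 31 genes was called higher, beside 19.8% of all 28636 probes, and 6 lower, beside 32.1%, both below the share over all probes, and the median change was -0.19, the same as that of all probes. Kif4 was -1.61, -1.69 and -1.64 in ED, above the -2.70, -2.66 and -2.62 of ES with no overlap (1.01 ± 0.17, adjusted p = 0.000139). The genes called lower were Zwilch (-1.20 ± 0.29, adjusted p = 0.00697, from 1 usable ES array at 1.92 and 2 ED arrays at 1.00 and 0.44), Aurka (-1.08 ± 0.26), Cdc20 (-0.92 ± 0.36), Espl1 (-0.80 ± 0.16), Cdca8, the borealin of the passenger complex (-0.70 ± 0.22), and Pttg1 (-0.65 ± 0.22), with adjusted p from 0.0011 to 0.0426. With 1 ES array, the standard error of Zwilch takes its spread from the other groups, and that array is assumed to vary as they do. Cdc20 was 4.97, 4.94 and 4.83 in ES, Espl1 4.30, 4.25 and 4.41, Pttg1 5.49, 5.18 and 5.35, and Aurka 1.75 and 1.45 on the 2 usable arrays. For each of these 4 genes every ES array read lay above every ED array. Of 5 genes of anaphase and chromosome separation tested, 3 were among the 6. Ttk was lower by its second probe (-0.69 ± 0.22, adjusted p = 0.0192) and not called by its main one (-0.35 ± 0.14, adjusted p = 0.0624).

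The direction of this comparison depends on the scaling. With arrays scaled to their median instead of the 75th percentile, 12 of the genes were called higher and 0 lower. The median change of the genes was then 0.45 and that of all probes 0.46. Both scalings subtract 1 constant per array, which moves the genes and all probes nearly alike, so this cannot test their difference. Quantile normalization gave medians of 0.05 for the genes and 0.22 for all probes. With only probes well above background on all arrays compared, they were -0.19 and -0.01. Of the 6 fits that left out 1 ES or ED array, the call of Cdc20 was kept in 0, those of Cdca8 and Pttg1 in 2, that of Aurka in 5 and those of Kif4 and Espl1 in 6. The genes called lower numbered 3 without ES replicate 1, 2 without ES replicate 3, 3 without ED replicate 1, 3 without ED replicate 2 and 12 without EDRE replicate 1. With scan time as a random block, Kif4 alone was called, higher (adjusted p = 0.0327). In EDRL against ED the median change was -0.32 with arrays scaled to their median, beside 0.06 for all probes, and 2 genes were called lower. With outlier spots kept, which allows all 38 genes to be tested in ED against ES, Racgap1, which activates the contractile ring, was higher by 1.5 ± 0.19 (adjusted p = 7.13e-06) and Dlgap5, a microtubule protein of the spindle, lower by -1.18 ± 0.26 (adjusted p = 0.00127).

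The other mitotic genes, listed by role and not by their values, had a smaller median change. In EDRL against ED, 6 of 84 tested fell, beside 0.653% of all probes, and 0 rose, beside 1.74%. The median was -0.27, and 64 of the 84 changes were below 0, against 59.4% of all probes. Of CDK1, its cyclins and regulators, 3 of 12 fell, and these were Bora, the activator of Plk1 through Aurka, at 1.44, 1.20 and 1.17 in ED and -0.18, -0.21 and -0.24 in EDRL (-1.48 ± 0.16, adjusted p = 0.000499), and the CDK1-activating phosphatases Cdc25b (-0.81 ± 0.19, adjusted p = 0.041) and Cdc25c (-0.95 ± 0.21, adjusted p = 0.0403). Kif22, a chromokinesin, fell by 0.93 (standard error 0.15, adjusted p = 0.00593), and so did Cenpl and Cenpi of the inner kinetochore, with changes of -0.65 and -0.84. None of 13 APC/C genes tested and none of 12 condensin and cohesin genes fell, and their medians of -0.14 and -0.12 were near that of all probes.

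Ccna2 (-0.64 ± 0.16, adjusted p = 0.0567), Ccnb1 (-0.56 ± 0.16, adjusted p = 0.107) and Mki67 (-0.80 ± 0.21, adjusted p = 0.0802) did not pass, and Cdk1 itself had a change of -0.13 ± 0.44. In ES cells at 4 h, 0 of 79 of the other mitotic genes fell, beside 7.13% of all probes. Of the 79, 1 rose, beside 1.75%, and the median was 0.00. Cdc25b (-1.29 ± 0.27, adjusted p = 0.0431) and Kif22 (-1.05 ± 0.23, adjusted p = 0.0487) were more negative in ED than in ES cells at 4 h. These were out of 78 tested, beside 0.243% of all probes.

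Of 15 transcription factors of the cell cycle and genes of the p53 axis, none of 13 tested was called in EDRL against ED. In that comparison 0.653% of all probes fell and 1.74% rose. Foxm1, which drives late cell cycle genes, was at 3.80, 4.24 and 4.66 in ED and 3.94 and 3.91 on 2 EDRL arrays (-0.31 ± 0.25, adjusted p = 0.662). Cdkn1a, the p21 inhibitor of cyclin-dependent kinases, was -0.76, -1.26 and -1.49 in ED and -0.60, -0.82 and -0.37 in EDRL (0.57 ± 0.29, adjusted p = 0.428), and -2.0, -1.78 and -2.13 in ES and -2.77, -2.11 and -3.20 in ESRL (-0.73 ± 0.30, adjusted p = 0.15). The ED and EDRL arrays overlapped for both genes. In ESRL against ES, 1 of 14 was called, and it was lower, beside 7.13% of all probes. This was Lin37, a subunit of MuvB, at -2.10, -1.91 and -2.23 in ES and -4.15, -2.68 and -3.41 in ESRL (-1.33 ± 0.34, adjusted p = 0.0263), without overlap. In ED against ES, 5 of 14 were called higher, beside 19.8% of all probes, and 1 lower, beside 32.1%. Their median change was 0.44, with all probes at -0.19. Among them, Foxm1 was higher by 2.22 ± 0.25 (adjusted p = 2.13e-05) and Mybl2, its partner on MuvB, lower by -3.73 ± 0.20 (adjusted p = 1.57e-08).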

How the data were processed

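Gene expression was measured in 18 samples of 6 groups, each labeled with Cy3 and hybridized to 1 array. The authors deposited the spot intensity as processed signals of Agilent Feature Extraction (version 9.1 in the submitters' processing notes, 10.7.3.1 in the file headers), background-subtracted and not normalized between arrays. They also deposited a matrix of log2 values, in which each value is the log2 signal, floored at 5, minus about the median of its array.

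Control spots and spots marked as outliers were left out. The 75th percentile of each array was subtracted on the log2 scale. Genes were named from RefSeq through the probe accession. A model of 6 groups was fitted with limma 3.58.1 in R 4.3.3 with Benjamini-Hochberg adjustment over the probes that Feature Extraction marked well above background throughout 1 or more of the groups compared. The procedure was run on simulated data with 200 changed probes. The simulated noise was independent between arrays, while in the data arrays of the same scan time were correlated (consensus correlation 0.81). The simulation therefore cannot show how scan time bears on the calls. The number of arrays limits the precision. Arrays of the same scan time were treated as a block, an inference of slides. Replicate numbers were not used as pairs in the main fit, since the correlation of same-numbered deviations was not above 0.1 for all pairs in any comparison. In ED against ES it was -0.076, 0.215 and 0.304 for replicates 1, 2 and 3. Such correlations, from 3 arrays per group, cannot settle whether samples were paired.

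The genes and lists were chosen with earlier results of these data known. Values per array are given for 17 genes fixed by name and for the 3 largest rises and falls called in each comparison. The alternatives changed the background correction (normexp with an offset of 50 on the median signal, since the files used hold no mean signal), scaling, filter, outlier spots, block, arrays fitted, test, fold limit and probe, used the matrix, and left out each array.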

Additional observations from a re-analysis of the deposited data

Results flagged for a closer look

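The change at 4 h after IR differed between ED and ES cells for 2 of the spindle and checkpoint genes, by the interaction term of the limma fit, given as the change in ED cells minus that in ES cells. The difference was -1.70 for Cenpf (adjusted p = 0.041) and -1.12 for Kif4 (adjusted p = 0.0383). Of the other mitotic genes, Cdc25b differed by -1.29 (adjusted p = 0.0431) and Kif22 by -1.05 (adjusted p = 0.0487). All 4 lie close to the threshold, and 0.243% of all 28375 probes tested were called more negative in ED.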

How the results depend on the processing

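No alternative reversed the direction of a called gene. Over the alternatives other than leaving out 1 array, 115 values of called genes kept their side of the threshold and 74 lost it. Counts are of the 38 genes called. In ED against ES, median scaling gave 12 higher, 0 lower and a median change of 0.45, and the deposited matrix 15, 0 and 0.50. Quantile normalization gave 3, 10 and 0.05, outlier spots kept 2 higher and -0.14, only the groups compared 3 and 11, the methods' t-test 4 and 10, leaving out EDRE replicates 2 and 3 (chosen after seeing the data) 2 and 12, scan time as a random block 0 lower, and a required log2 change over 1 2 lower. In EDRL against ED, the number lower was 2 with median scaling (median -0.32), 1 with the matrix (-0.34), 8 with quantile normalization (-0.51), 1 with normexp (-0.41), 2 with outlier spots kept, with no filter and with a log2 change over 1, 14 with only the groups compared, 8 by the t-test, 12 without EDRE replicates 2 and 3 and 0 with the scan time block. In EDRE against ED, the number higher was 8 with median scaling (median 0.50), 13 with the matrix, 9 with normexp, 5 with outlier spots kept (1 lower), 1 with a log2 change over 1, and 0 with only the groups compared, the t-test, the scan time block or without EDRE replicates 2 and 3. In ESRL against ES, Kif4 was lost (0 higher) with outlier spots kept, only the groups compared, the t-test, the scan time block, a log2 change over 1, normexp, no filter and the stricter filter; 1 gene was lower with any probe of a gene or without EDRE replicates 2 and 3, and the median was 0.24 with median scaling and with the matrix. In ESRE against ES, 1 was higher with only the groups compared and by the t-test, and the median was 0.12 with median scaling, 0.13 with the matrix and -0.08 with quantile normalization. The 4 h interaction had 0 more negative with median scaling, the matrix, normexp, no filter or the scan time block, 1 with quantile normalization or outlier spots kept, 4 with only the groups compared and 5 without EDRE replicates 2 and 3. The cause of these shifts was not tested.

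Leaving out 1 array at a time, ED against ES had 1 to 2 higher, 2 to 12 lower and medians from -0.26 to -0.15. ESRE had 0 to 1 higher, 0 lower and 0.02 to 0.10, and ESRL 0 to 1 higher, 0 to 3 lower and -0.08 to -0.01. EDRE had 0 to 12 higher, 0 to 1 lower and 0.08 to 1.12, and EDRL 0 higher, 1 to 10 lower and -0.54 to -0.47. The interactions had 0 to 10 more positive and 0 to 1 more negative at 15 min, and 0 to 2 and 0 to 4 at 4 h.

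In no comparison did all 3 same-numbered pairs correlate above 0.1. With the replicate block, ED against ES had 1 higher and 5 lower, EDRL 3 lower, and ESRL, EDRE and the 4 h interaction 0.

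Outlier spots limit Ndc80, Dlgap5, Zw10, Birc5, Cenpa and Racgap1 to 7 arrays or fewer, and low signal limits Kif20a and Nuf2.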
